A study of Mus musculus with 3 samples.

Results

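The genes described here encode the tissue isoforms of cytochrome c oxidase (complex IV), the last enzyme of the mitochondrial respiratory chain. In 4 of its nuclear-encoded subunits, COX4, COX6A, COX7A and COX8, a ubiquitous isoform has a counterpart made mainly in certain tissues, which gives 8 genes: Cox4i1, Cox6a1, Cox7a2 and Cox8a are ubiquitous, and Cox4i2, Cox6a2, Cox7a1 and Cox8b are their tissue isoforms. Members were the non-control probes whose RefSeq accession belongs to one of these genes. This gave 9 probes for the 8 genes, 2 of them for Cox8a, and all 8 genes were among the 19315 genes and unnamed features tested. The data come from whole brown adipose tissue of male mice aged 10 weeks on regular chow, hybridised in 2 colours to 3 Agilent arrays. Each carried Cy5-labelled RNA from an Ad-Lkb1 mouse sample (strain named as C57BL/6J) beside Cy3-labelled RNA from a wild-type littermate sample (named as C57BL/6), so dye, strain name and genotype cannot be told apart. The design text counts 3 biological replicates of each genotype. The deleted gene, per the series title, is liver kinase B1, and the driver of the deletion is not given in the sources used here.

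Complex IV passes electrons from cytochrome c to oxygen and pumps protons. Its catalytic core is encoded by mitochondrial DNA, and the nuclear subunits surround this core and modify its stability and regulation. In rodents COX6A2, COX7A1 and COX8B are the heart and skeletal muscle forms, and COX7A1 and COX8B are also abundant in brown fat, where their genes serve as markers of brown adipocytes. COX4I2 is the form of lung and of vascular mural cells and is induced by low oxygen.

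Values below are log2 ratios with Ad-Lkb1 above and wild type below the line, taken within an array after background correction and loess normalization, a smoothing that removes the change of the dye ratio with spot brightness. A gene passed the test at an adjusted p under 0.05 in limma, adjusted by Benjamini-Hochberg over all 19315 features, and by that rule 8.71% of all features passed, 4.78% higher and 3.93% lower in Ad-Lkb1. All 9 probes were well above background on all 3 arrays in both channels, and no spot was saturated. The probes of Cox4i1, Cox6a1, Cox7a1, Cox7a2, Cox8a and Cox8b were among the brightest of the array, at or above the percentile 99.1 of probe brightness. The labelled tissue showed all 10 listed brown adipocyte markers above background in all 6 samples, and Stk11, which encodes the deleted kinase, had ratios of -1.26, -1.17 and -1.17 on arrays 1 to 3.

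Cox7a1 was the only member that passed the test. This is 1 of the 8 genes, a share near the background of 8.71%. Cox7a1, the heart, muscle and brown fat form of the COX7A subunit, was 1.95-fold higher in Ad-Lkb1 tissue, while Cox6a2 differed in direction between arrays and the other tissue isoforms stayed within 0.4 of 0 on average. For 6 of the 8 genes the ratio was above 0 on all 3 arrays, which held for 24.0% of all features, and for 0 of the 8 it was below 0 on all 3, which held for 27.8%. The same 6 genes had all Ad-Lkb1 levels above all wild-type levels, which held for 17.7%. These directions depend on loess: with median centring of each array in its place, which does not remove a brightness-dependent dye bias and moves the median of all features from -0.01 to -0.42, Cox4i1, Cox6a1, Cox7a2, Cox8a and Cox8b had mean ratios below 0. All 8 genes, Cox7a1 included, were then below 0 on array 1, so that 0 of the 8 were above 0 on all 3 arrays, against 5.14% of all features. The count was 4 of the 8 with the processed signals of the scanner software and with the authors' table of values, against 22.5% and 22.6% of all features.

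**Figure D1:**
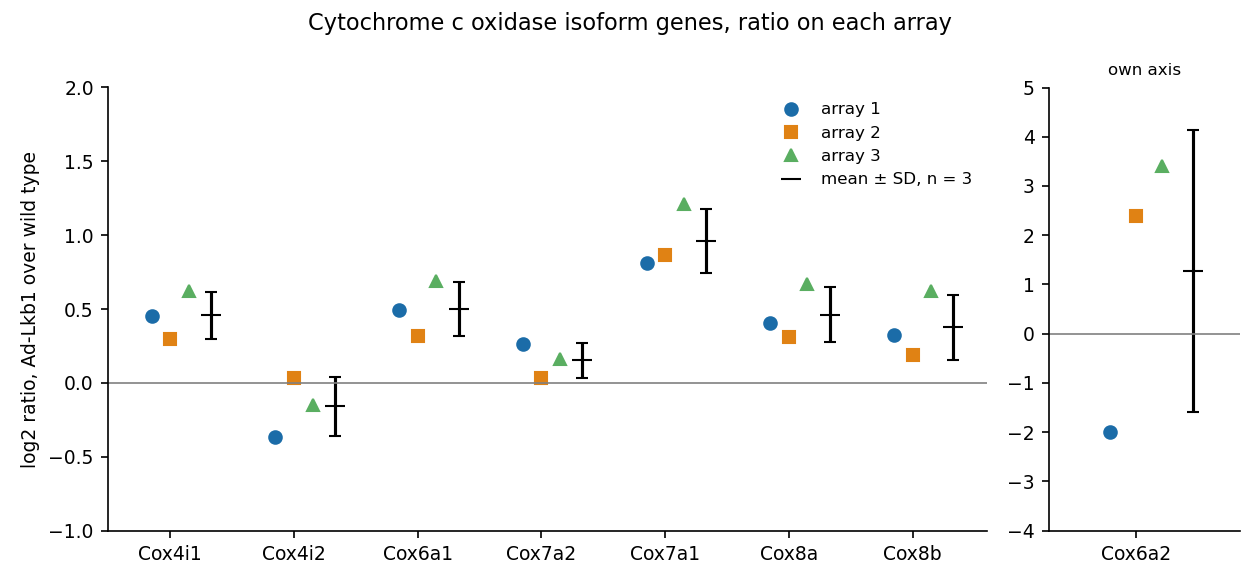
Ad-Lkb1 to wild-type ratio on the log2 scale (y axis) for each isoform gene (x axis), with 1 point per array and a bar for the mean ± SD of 3 arrays. Cox6a2 has its own axis, from -1.99 on array 1 to 3.41 on array 3, while Cox7a1 lies between 0.81 and 1.21.

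COX7A is described first because it holds the gene that passed the test. The raw Cox7a1 signal was 54457, 61450.5 and 57301 in the Ad-Lkb1 channel of arrays 1 to 3 and 88665.5, 60513 and 51935 in the wild-type channel, over local backgrounds of at most 45.5. The wild-type signal was highest on array 1, and since the dyes differ in brightness the raw channels cannot be compared directly. After normalization the log2 level of Cox7a1 was 16.38, 16.33 and 16.44 in Ad-Lkb1 and 15.57, 15.46 and 15.23 in wild type. The groups did not overlap, and the lowest Ad-Lkb1 level lay above the highest wild-type level. The log2 ratio was 0.81, 0.87 and 1.21 on arrays 1 to 3, a mean of 0.96 ± 0.22 (SD, n = 3; SE 0.11; limma, adjusted p = 0.0218). The call did not hold with median centring (-0.35, 0.59 and 0.61 on arrays 1 to 3, mean 0.28, adjusted p = 0.323), where array 1 turned in direction, with the scanner software's processed signals (0.58, adjusted p = 0.0975) or with the deposited value table (0.58, adjusted p = 0.0977). It also did not hold without array 1 (1.04, adjusted p = 0.139) or without array 2 (1.01, adjusted p = 0.115), where limma called 0 genes in all.

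Cox7a2, the ubiquitous form of the same subunit, had log2 levels of 14.38, 14.21 and 14.23 in Ad-Lkb1 and 14.12, 14.18 and 14.06 in wild type. The groups lay next to each other, with the lowest Ad-Lkb1 level just above the highest wild-type level. Its log2 ratio was 0.26, 0.03 and 0.16, a mean of 0.15 ± 0.12 (SD, n = 3), not past the threshold (limma, adjusted p = 0.285). With median centring Cox7a2 had -0.54 and passed as lower (limma, adjusted p = 0.0264), as 9705 of 19315 features did. The ratio of Cox7a1 exceeded that of Cox7a2 on every array, by 0.55, 0.84 and 1.04 on the log2 scale. The mean difference was 0.81 ± 0.25 (SD, n = 3), a 1.75-fold higher ratio for the tissue isoform. An exact two-sided sign-flip permutation test gave p = 0.25, the smallest p that 3 arrays allow (adjusted p = 0.333 over the 4 subunits). Over the 10 alternatives run for this difference it ranged from 0.59 to 0.94 and stayed above 0. Both genes have a single probe, so dropping the filter on dim probes or averaging probes left it at 0.81. Leaving out 1 array could not turn its sign either, as it was above 0 on all 3. The probe of Cox7a2 was dimmer, at the brightness percentile 99.1 against 99.9 for Cox7a1. Against the ubiquitous Cox4i1, Cox6a1 and Cox8a the ratio of Cox7a1 was higher by 0.51, 0.46 and 0.50 on average. The part of probe brightness in these differences was not tested.

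**Figure D2:**
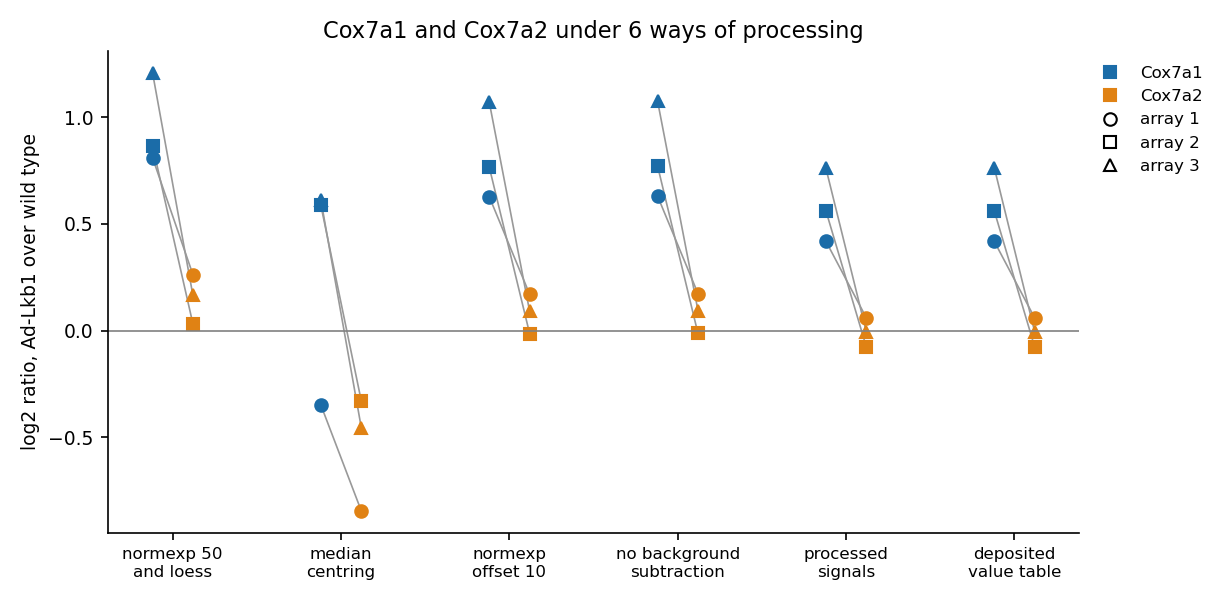
Ad-Lkb1 to wild-type ratio on the log2 scale (y axis) of Cox7a1 (blue) and Cox7a2 (orange) under 6 ways of processing (x axis), with 1 symbol per array and a line joining both genes of an array. The level of both genes shifts with the processing, and Cox7a1 is above Cox7a2 on each array in each of the 6.

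The upstream sequences of this pair are shown because it is the subunit whose isoforms differed in the same direction on every array by the largest mean. They are the 250 bases before the gene start in RefSeq (build GRCm38.p6), at chr7:30183921-30184170 on the plus strand for Cox7a1 and at chr9:79759854-79760103 on the minus strand for Cox7a2, read 5′ to 3′ along the gene. Capitals mark the E-box letters CANNTG and the ETS core CCGGAA on either strand.
Cox7a1: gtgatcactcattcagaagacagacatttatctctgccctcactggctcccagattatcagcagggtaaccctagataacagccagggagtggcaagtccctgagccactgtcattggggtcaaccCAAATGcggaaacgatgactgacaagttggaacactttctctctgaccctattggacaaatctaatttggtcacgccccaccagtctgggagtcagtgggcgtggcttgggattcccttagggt
Cox7a2: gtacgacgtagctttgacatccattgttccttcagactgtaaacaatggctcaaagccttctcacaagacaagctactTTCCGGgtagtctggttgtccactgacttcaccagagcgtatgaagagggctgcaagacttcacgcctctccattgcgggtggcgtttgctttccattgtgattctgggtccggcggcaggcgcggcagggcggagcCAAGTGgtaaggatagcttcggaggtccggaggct

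The Cox7a1 stretch held 4 CpG dinucleotides and the Cox7a2 stretch 14, against a median of 6 over 32851 RefSeq upstream stretches of the same length. Their GC content was 51.2% and 54.8%, against a median of 52.4%. Upstream sequence was found for 5 of the 8 genes. The ubiquitous Cox6a1 held 26 CpG and Cox8a 11, and the tissue isoform Cox8b held 1. The E-box letters lay 124 to 119 bases before the start of Cox7a1 and 35 to 30 bases before that of Cox7a2. The same letters occurred in 4 of the 5 stretches and in 66.2% of all. The ETS core was in 2 of the 5, Cox7a2 and Cox6a1, and in 12% of all. The NRF1 consensus, given by name, was in 1, Cox6a1, and in 0.782% of all. The ERR half-site AAGGTCA (4.08% of all) and the MEF2 motif (2.92%) were in 0 of the 5. A match describes these letters only, and no binding was measured.

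In COX8 neither isoform passed the test, and both had ratios above 0 on every array. Cox8b, the heart, muscle and brown fat form, had log2 levels of 16.46, 16.37 and 16.56 in Ad-Lkb1 and 16.14, 16.18 and 15.94 in wild type, and the groups did not overlap. Its log2 ratio was 0.32, 0.19 and 0.62, a mean of 0.38 ± 0.22 (SD, n = 3), not past the threshold (limma, adjusted p = 0.104). Cox8a, the ubiquitous form, had levels of 16.27, 16.15 and 16.28 against 15.86, 15.84 and 15.61, again without overlap. Its ratio was 0.41, 0.31 and 0.67, a mean of 0.46 ± 0.19 (SD, n = 3; limma, adjusted p = 0.0591). The second probe of Cox8a, which reads the same transcript accession, gave 0.16, 0.16 and 0.49, a mean of 0.27 ± 0.19 (SD, n = 3; limma over all kept probes, adjusted p = 0.155).

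The ratio of Cox8b differed from that of Cox8a by -0.08, -0.12 and -0.05 on the 3 arrays, a mean of -0.09 ± 0.04 (SD, n = 3; exact sign-flip p = 0.25, adjusted p = 0.333). Against the second Cox8a probe the difference was 0.16, 0.03 and 0.13, a mean of 0.11 ± 0.07 (SD, n = 3). The sign of this difference thus depended on which Cox8a probe was used, and it was smaller than the gap between those probes. The ratio of Cox7a1 exceeded that of Cox8b by 0.49, 0.68 and 0.59 on arrays 1 to 3, a mean of 0.59 ± 0.09 (SD, n = 3), and Cox7a1 thus had the higher ratio of these brown fat and muscle isoforms on all 3.

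**Figure D3:**
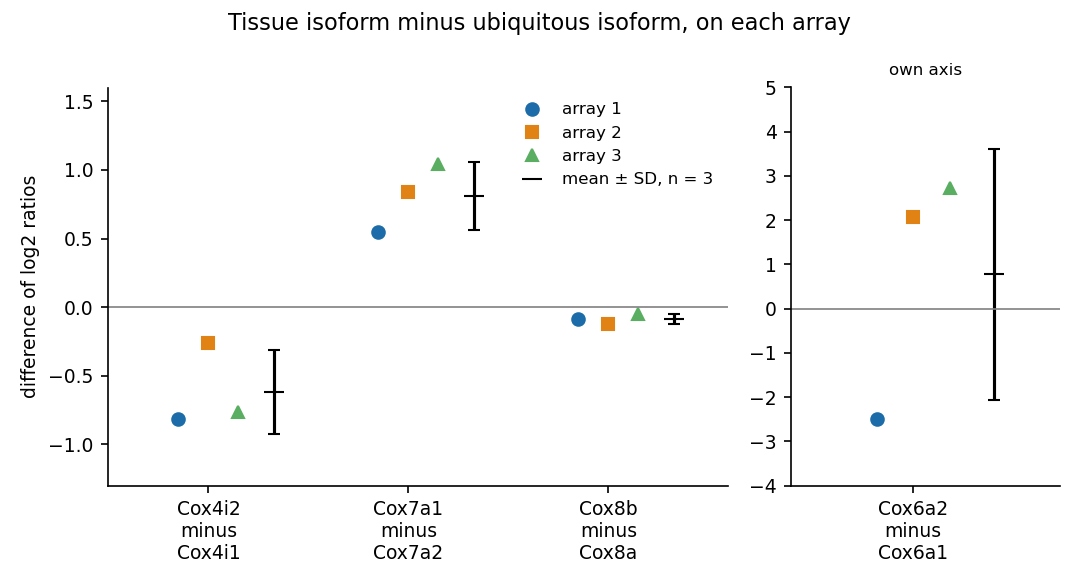
Log2 ratio of the tissue isoform minus that of the ubiquitous isoform of the same subunit (y axis), with 1 point per array and a bar for the mean ± SD of 3 arrays. COX7A lies above 0 and COX4 below 0 on every array, COX8 lies within 0.13 of 0, and COX6A, on its own axis, changes sign between arrays.

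COX6A held the member that varied most. The raw signal of Cox6a2, the heart and muscle form, was 688, 164.5 and 62 in the wild-type channel of arrays 1 to 3, over a background of 43 to 44. In the Ad-Lkb1 channel it was 49, 478.5 and 471, over a background of 17. The normalized log2 level was 9.05, 7.09 and 5.98 in wild type and 7.06, 9.49 and 9.39 in Ad-Lkb1. Wild type was high on array 1 and low on array 3, and Ad-Lkb1 was low on array 1 and high on arrays 2 and 3, so the groups overlapped. The log2 ratio was -1.99, 2.40 and 3.41, a mean of 1.27 ± 2.87 (SD, n = 3; limma, adjusted p = 0.51), and the spread between arrays exceeded the mean. The size of the ratios depended on processing, with -3.10, 2.97 and 5.86 from the processed signals. Over the 12 alternatives the mean of Cox6a2 ranged from 0.21 to 2.91, and Cox6a2 passed in 0 of them.

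Skeletal muscle genes varied with it. The muscle lists name 38 genes of fast fibres, slow fibres and the sarcomere, all on the array, and their summed normalized intensity was 30703, 10568 and 6775 in wild type and 8009, 35045 and 35249 in Ad-Lkb1. Of the 38, 37, 29 and 19 were well above background in the wild-type samples and 23, 38 and 36 in the Ad-Lkb1 samples. Wild type of array 1 and Ad-Lkb1 of arrays 2 and 3 were thus the samples rich in muscle transcripts, and these were also the samples high in Cox6a2. Like Cox6a2, 33 of the 38 genes had a ratio below 0 on array 1 and above 0 on arrays 2 and 3. Among the 23 muscle genes that passed the filter on dim probes the count was 19, and that pattern held for 9.13% of all tested features. The part of muscle in the values of Cox6a2 was not tested.

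Acta1, the actin of skeletal muscle, had log2 ratios of -3.17, 3.06 and 4.27, and the calcium buffer Pvalb had -3.11, 2.42 and 3.72. The calcium pump Atp2a1 of fast fibres had -1.11, 1.29 and 1.47. The oxygen-binding Mb had -0.08, 2.16 and 2.16. Among these 4, each wider in range than any member other than Cox6a2, none passed the threshold (limma, adjusted p from 0.151 to 0.686). The calcium pump Atp2a2, which many tissues share, was the 1 of 23 tested muscle genes that passed, against 8.71% of all features. Atp2a2 was higher in Ad-Lkb1 at 0.76, 0.74 and 0.76 (limma, adjusted p = 0.015). With median centring it had 0.08 and did not pass, nor did it pass without array 1 or without array 2. Myl3, a myosin light chain of slow fibres, had -1.57, -0.14 and -0.63, and the light chain Mylpf had 0.01, 0.03 and -0.23.

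**Figure D4:**
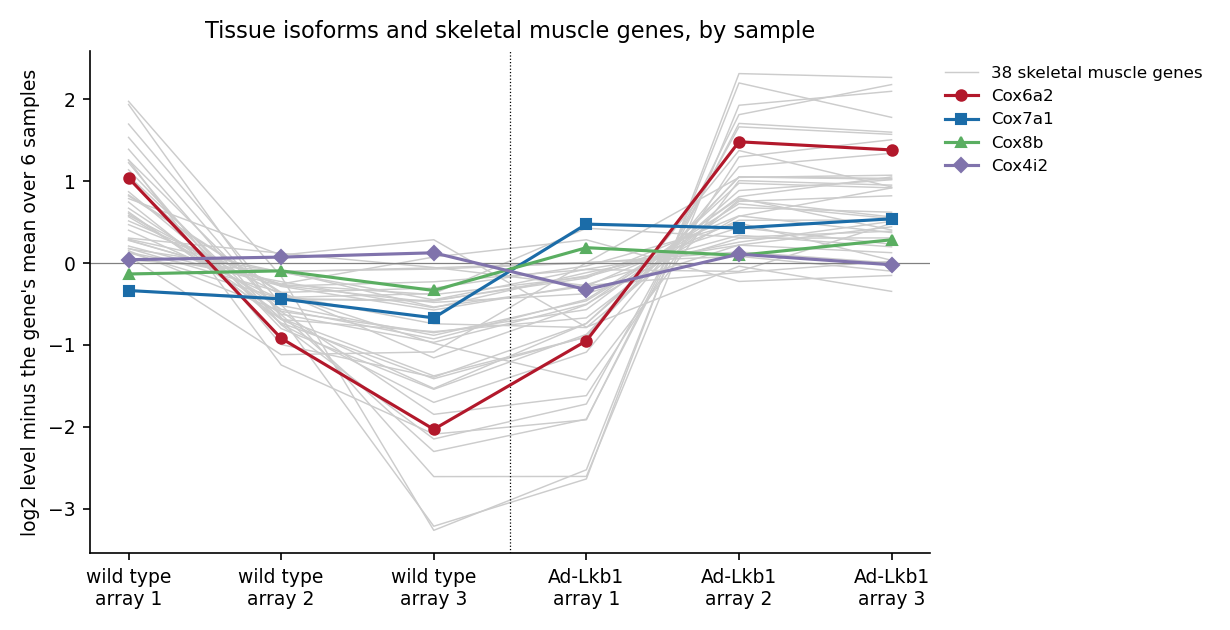
Normalized log2 level of each gene minus its own mean over the 6 samples (y axis), by sample (x axis), for the tissue isoforms (coloured) and 38 skeletal muscle genes (grey lines). After loess, Cox6a2 follows the grey lines across samples, while Cox7a1, Cox8b and Cox4i2 move within a narrow band.

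After loess the other tissue isoforms varied less between samples of a genotype. Across the wild-type samples the log2 level of Cox6a2 spanned 3.07, that of Cox7a1 0.33, that of Cox8b 0.24 and that of Cox4i2 0.08. Across the Ad-Lkb1 samples the spans were 2.43, 0.11, 0.19 and 0.43. On array 1, where muscle genes had a median ratio of -1.11 over all 38, Cox7a1 had 0.81 and Cox8b 0.32. On arrays 2 and 3, where the muscle median was 1.20 and 1.53, Cox7a1 had 0.87 and 1.21 and Cox8b 0.19 and 0.62. With median centring Cox7a1 was below 0 on array 1 and above 0 on arrays 2 and 3 (-0.35, 0.59 and 0.61), the signs that most muscle genes had. The part of muscle in the values of Cox7a1 and Cox8b was not tested. In these bulk samples fewer cells of a type and less RNA per cell cannot be told apart. Macrophage markers moved with genotype too, with 7 of 10 higher and 0 lower, against 4.78% and 3.93% of all features. Their summed level was 8008 to 9400 in Ad-Lkb1 against 2195 to 4407 in wild type. The part of macrophages in the member values was not tested.

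Cox6a1, the ubiquitous form of COX6A, had log2 levels of 17.17, 17.15 and 17.27 in Ad-Lkb1 and 16.67, 16.83 and 16.58 in wild type, without overlap. Its ratio was 0.49, 0.32 and 0.69, a mean of 0.50 ± 0.19 (SD, n = 3), just outside the threshold (limma, adjusted p = 0.051). It passed narrowly with the mean of each gene's probes (adjusted p = 0.04996) and with every probe tested on its own (adjusted p = 0.0491), with the same ratio, since it has a single probe. Cox6a1 had only 0.065 with the processed signals and 0.066 with the deposited value table (limma, adjusted p = 0.766 and 0.762). Median centring gave it -0.16. With every probe on its own 2 of the 9 member probes passed, those of Cox7a1 and Cox6a1, against 8.75% of all kept probes. The ratio of Cox6a2 minus that of Cox6a1 was -2.48, 2.08 and 2.72, a mean of 0.77 ± 2.84 (SD, n = 3; exact sign-flip p = 0.75). No direction for this subunit can be read from these arrays.

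In COX4 the ubiquitous form had the higher ratio on every array. Cox4i1 had log2 levels of 16.30, 16.29 and 16.43 in Ad-Lkb1 and 15.85, 15.99 and 15.81 in wild type, without overlap. Its ratio was 0.45, 0.30 and 0.62, a mean of 0.46 ± 0.16 (SD, n = 3; limma, adjusted p = 0.0523). Cox4i2, the hypoxia-induced form of lung and mural cells, gave weak raw signals of 277, 301.5 and 321 in wild type and 81, 135.5 and 126 in Ad-Lkb1. Its normalized level was 7.83, 7.86 and 7.91 in wild type and 7.46, 7.89 and 7.76 in Ad-Lkb1, and the groups overlapped. The ratio was -0.37, 0.04 and -0.15, a mean of -0.16 ± 0.20 (SD, n = 3; limma, adjusted p = 0.374). With median centring Cox4i2 had -0.68 and passed (adjusted p = 0.0178). Under that setting 9705 of 19315 features passed as lower and the median of all was -0.42, so the call is not particular to Cox4i2.

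The ratio of Cox4i2 minus that of Cox4i1 was -0.82, -0.26 and -0.77 on the 3 arrays, a mean of -0.62 ± 0.31 (SD, n = 3; exact sign-flip p = 0.25, adjusted p = 0.333). It lay below 0 in each of the 10 alternatives run, from -0.79 to -0.44. Both genes have a single probe, so dropping the filter or averaging probes left it at -0.62. Leaving out 1 array could not turn its sign either, as it was below 0 on all 3. The probes of Cox4i1 and Cox4i2 lie far apart in brightness, at the percentiles 99.97 and 80.4.

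Genes linked to Cox4i2 by cell type or oxygen passed in small numbers and in both directions, against 4.78% of all features higher and 3.93% lower. Of 11 pericyte and vascular smooth muscle genes, all tested, 1 rose and 1 fell, with a median ratio of -0.11 and a summed level of 6725 to 8674 in Ad-Lkb1 and 7162 to 7996 in wild type. The contractile protein gene Cnn1 rose (1.05, adjusted p = 0.0195), the proteoglycan gene Cspg4 of pericytes fell (-0.44, adjusted p = 0.047), and Abcc9 and Higd1b had -0.42 and -0.18, not past the threshold (adjusted p = 0.0724 and 0.225). Cspg4 passed in 3 of its 12 alternatives. With median centring Cnn1 had 0.39 and did not pass (adjusted p = 0.102), while Abcc9 and Higd1b had -1.01 and -0.86 and passed (adjusted p = 0.00808 and 0.0112). Under that setting 9705 of 19315 features passed as lower, with a median of -0.42 over all. Of 10 hypoxia-induced genes tested, 1 rose and 1 fell, with a median of 0.16. The vasodilator peptide gene Adm rose (0.46, adjusted p = 0.0319) and Pdk1, which inhibits pyruvate dehydrogenase, fell (-1.02, adjusted p = 0.0114). Median centring gave Adm 0.28, no longer past the threshold (adjusted p = 0.0633), and Pdk1 -1.69, still past it (adjusted p = 0.00808). Ndufa4l2, a hypoxia-induced paralog of a complex IV-associated subunit, had -0.12 (adjusted p = 0.421).

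The rest of complex IV was measured with lists chosen by role. Of 7 subunits outside the 4 isoform pairs, 0 passed (limma; 2 at an unadjusted p under 0.05), against 8.71% of all features. Their median ratio was -0.10 against -0.01 for all features. Among them Cox6b1, Cox7b and Ndufa4 have paralogs on the array, Cox6b2, Cox7b2 and Ndufa4l2. With the smallest p, Ndufa4 had -0.29, Cox7b 0.24, Cox6b1 -0.19 and Cox5a 0.17 (adjusted p = 0.16, 0.164, 0.225 and 0.313). With median centring Ndufa4 and Cox6b1 had -0.98 and -0.89 and passed (adjusted p = 0.021 and 0.00908), and Cox7b and Cox5a had -0.44 and -0.51. The median of all features was then -0.42, and 9705 of 19315 passed as lower. The 4 ubiquitous isoforms had a median of 0.46 and the 4 tissue isoforms one of 0.67, and Cox6a2, whose direction is unsettled, enters the latter. The ratios of the ubiquitous isoforms depended on processing. Cox4i1, Cox6a1, Cox7a2 and Cox8a had -0.22, -0.16, -0.54 and -0.21 with median centring. With the processed signals they had 0.16, 0.065, -0.0075 and 0.19. Of 3 other paralogs tested, 0 passed, and Cox7a2l, which helps join complex IV into supercomplexes, had 0.01 (adjusted p = 0.974), while the testis isoform Cox6b2 had 0.30 (adjusted p = 0.215).

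**Figure D5:**
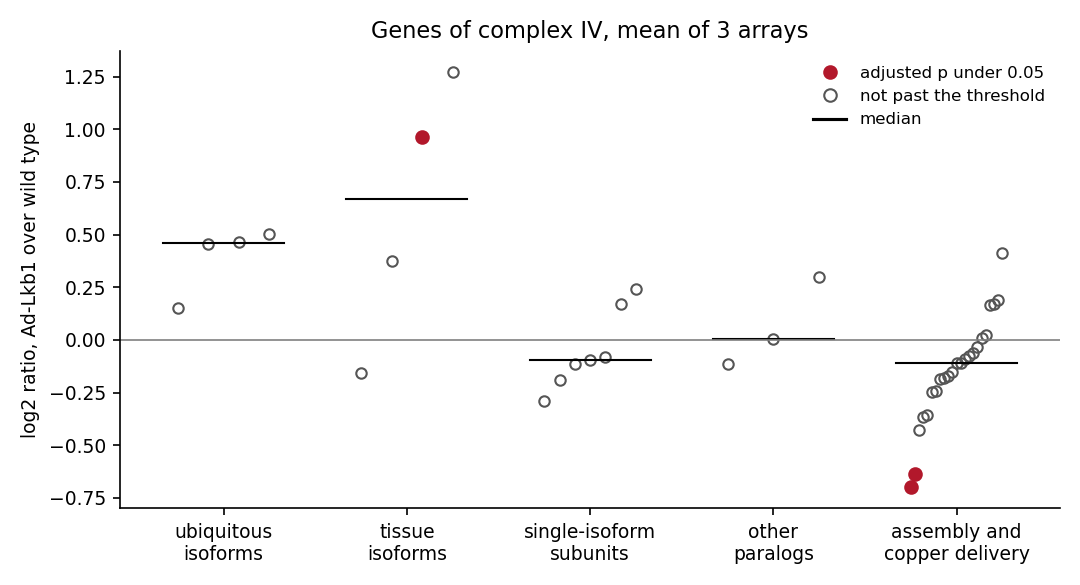
Mean Ad-Lkb1 to wild-type ratio on the log2 scale (y axis) of every tested gene of 5 complex IV lists (x axis), with filled points past the threshold and a line at each list's median. Cox7a1 is the filled point of the tissue isoforms, and 2 assembly genes are filled below 0. The list drawn as single-isoform subunits includes Cox6b1 and Ndufa4, whose paralogs Cox6b2 and Ndufa4l2 are drawn among the other paralogs.

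Of 23 assembly and copper delivery genes tested, 0 rose and 2 fell (8.70%, against 3.93% of all features lower), with a median of -0.11, and 12 of the 23 were below 0 on all 3 arrays, against 27.8%. The twin CX9C protein gene Cmc1, which acts early in the assembly of the COX1 core subunit, had -0.66, -0.61 and -0.83 on arrays 1 to 3 (mean -0.70, adjusted p = 0.0229). Cox14, which couples COX1 synthesis to assembly, had -0.65, -0.77 and -0.49 (mean -0.64, adjusted p = 0.0278). Taco1, a translational activator of COX1, had -0.36 and Cmc2 had 0.41 (adjusted p = 0.0514 and 0.0588). Neither Cmc1 nor Cox14 passed with the processed signals or the deposited value table, nor without array 1 or without array 2. Cycs, the somatic cytochrome c that brings electrons to complex IV, rose (0.45, adjusted p = 0.0456), but passed in only 3 of its 12 alternatives and had -0.24 with median centring.

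Of 13 regulators of complex IV genes, 1 rose and 0 fell, against 4.78% and 3.93% of all features, with a median of -0.01. Chchd2, a mitochondrial protein that also binds the COX4I2 promoter in the nucleus, had 0.44, 0.42 and 0.72 (mean 0.53, adjusted p = 0.0422), but passed in only 3 of 12 alternatives and had -0.14 with median centring. The coactivator gene Ppargc1b had -0.40 (adjusted p = 0.0772). Brown adipocyte markers, several of which are named together with Cox7a1 and Cox8b in that role, had a median of 0.16. Of these 10, 4 passed as higher and 1 as lower, against 4.78% and 3.93% of all features. The mean ratio was above 0 for 5 of them and below 0 for 5. Ucp1, the uncoupling protein, rose by 1.48 and Dio2, which activates thyroid hormone, by 2.07 on the log2 scale (adjusted p = 0.0114 and 0.0204). Kcnk3 was the marker that fell (-0.75, adjusted p = 0.0233). Of 8 general adipocyte markers 0 passed (limma; 3 at an unadjusted p under 0.05), with a median of -0.17, Fabp4 at 0.48 and Lipe at -0.38. Endothelial markers had 1 of 7 higher, Vwf at 0.40 (-0.25 with median centring), and 1 lower, Kdr at -0.42, and these passed in 5 and 4 of 12 alternatives. Without array 1 or without array 2 no gene named here passed, as limma then called 0 of all features.

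The genes whose levels ran most like a tissue isoform over the 6 samples were found by Pearson correlation, as a description in which genotype, dye and array are shared. For Cox7a1 they were Chchd10 (r = 0.999), Lrrfip1 (0.998) and Fam131c (0.998). Chchd10, which encodes a mitochondrial intermembrane space protein, had log2 ratios of 0.74, 0.71 and 1.09, close to the 0.81, 0.87 and 1.21 of Cox7a1. For Cox8b they were the complex I subunit gene Ndufs7 (0.997), Cttnbp2nl (0.993) and Rad52 (0.991). For Cox6a2 they were Mybpc1 (0.996) and Mybpc2 (0.991), which encode myosin-binding proteins of skeletal muscle, and Ggnbp1 (0.988). For Cox4i2 they were Zranb2 (0.992), Csrnp3 (0.991) and Skint9 (0.979).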

How the data were processed

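Spots were read in 2 colours with Agilent Feature Extraction 11.5, per the submitters' processing notes. Per the file headers, the deposited scanner output holds median spot and background intensity, processed intensity and the Cy5 to Cy3 ratio as log10. The table of values matched this log10 ratio, with a median of 0. The files name 1 slide and 1 scan, so neither could be tested. The share of features well above background lay between 46.7% and 51.3% per channel, and the 3 arrays limit precision.

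Median intensities were corrected with normexp (offset 50) and normalized by loess within arrays in limma 3.58.1 (R 4.3.3), control spots at weight 0. Outlier spots and 3 incomplete features were left out. Probes with usable spots on all arrays and well above background on all 3 in a channel were kept (25013 of 55678), and the brightest represents a gene. Symbols come from RefSeq (GRCm38.p6). Levels per sample followed Aquantile scaling between arrays. Fits used lmFit and eBayes and were tested on simulated data. Named genes are the members, up to 4 (complex IV, muscle, pericyte) or 2 of smallest p per list, and 3 like genes per tissue isoform. Kcnk3 was added as the brown adipocyte marker that fell. Members and lists were chosen with earlier results of these data known. Probe sequences were not used here, so cross-hybridisation between isoforms was not tested.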

Additional observations from a re-analysis of the deposited data

How the results depend on the processing

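The number of features past the threshold was 1682, or 10094 with median centring (3.85% of them higher, against 54.9%), 811 with the processed signals and with the deposited value table (65.2% higher), and 1033 without a filter on dim probes. With an offset of 10 the number was 1593 (66.9% of them higher in Ad-Lkb1), and without background subtraction it was 1573 (64.5% of them higher). Leaving out 1 array gave 0 to 2054 (0 without array 1 or array 2, with 3927 and 3560 at an unadjusted p under 0.05). The mean of Cox7a1 stayed above 0 in all 12 alternatives and passed in 7 of them. It was 0.28 under median centring, where array 1 alone had -0.35, 0.58 with the processed signals or the deposited value table, and 0.84 to 1.04 leaving out 1 array. Several of the 12 could not change this ratio. Cox7a1 has a single probe, so it kept 0.96 and passed without the filter, with the mean of probes and with every probe. Without the replicate block, described below, it also kept 0.96 and passed.

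With median centring Cox4i1 had -0.22, Cox6a1 -0.16, Cox7a2 -0.54, Cox8a -0.21 and Cox8b -0.30, and Cox4i2 had -0.68. With the processed signals and the deposited value table Cox4i1 had 0.16 and 0.17, and Cox6a1 had 0.065 and 0.066. In the same order Cox7a2 had -0.0075 and -0.0076, Cox8a 0.19 and 0.19, and Cox8b 0.045 and 0.047. With the processed signals or the deposited value table none of Cox4i1, Cox6a1, Cox7a2, Cox8a and Cox8b passed (limma, adjusted p from 0.398 to 0.974). With median centring Cox7a2 and Cox4i2 passed as lower (limma, adjusted p = 0.0264 and 0.0178). Cox4i1 kept 0.46 without the replicate block, that is with both channels of an array as unpaired samples, and passed then (adjusted p = 0.041). Cox6a1 kept 0.50 with the mean of probes and with every probe. The array itself pairs the samples, and without that block 2165 features passed. The difference of Cox8b from Cox8a was -0.15 with the processed signals, -0.15 with the deposited value table and 0.011 with the mean of probes.

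Among other named genes, median centring gave Chchd2 -0.14, Cmc2 -0.30, Cox5a -0.51, Cox6b2 -0.28, Cox7a2l -0.69, Cox7b -0.44, Cycs -0.24, Fabp4 -0.19 and Vwf -0.25. The processed signals and the deposited value table gave Cox5a -0.16 and -0.16, Cox7b -0.0087 and -0.0074, and Cox7a2l -0.078 and -0.079. Cox7a2l also had -0.056 with an offset of 10, -0.054 without background subtraction, -0.016 with the mean of probes, -0.036 without array 1 and -0.0058 without array 3. Leaving out 1 array gave -0.057 to 3.66 for Acta1, -0.35 to 3.07 for Pvalb, -0.11 to 0.019 for Mylpf and -0.036 to 0.058 for Cox7a2l. The causes were not tested. The second Cox8a probe was an alternative chosen after seeing the data.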

Other observations

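Ppargc1a, a coactivator gene listed both as a brown adipocyte marker and as a regulator of complex IV genes, is named here after its values were seen. Its log2 ratio was -0.94, 0.13 and 1.98 on arrays 1 to 3, a mean of 0.39 (limma, adjusted p = 0.702). Its log2 level was 10.55, 10.45 and 9.55 in wild type and 9.62, 10.58 and 11.52 in Ad-Lkb1, so the groups overlapped.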
